A study of Drosophila melanogaster with 24 samples.

Results

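The vacuolar proton pump genes of the fly were taken as every gene symbol in the count tables that starts with Vha, which gave 32 of 17753 symbols. By subunit, 13 of them code for parts of the V1 sector, 18 for parts of the V0 sector and 1 for an accessory subunit. Each matched 1 gene in the RefSeq gene table of the fly's Release 6 assembly, from which the positions below are taken. An expression filter on counts kept 18 of the 32 genes, 9 for V1, 8 for V0 and the accessory gene, among 6147 genes kept in all. The filter left out 14 Vha genes, 4 for V1 and 10 for V0. ATP6AP2, whose protein is another accessory subunit of the pump, carries no Vha symbol in the tables and was counted with the assembly factors below.

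The V-ATPase is a rotary pump that spends ATP to move protons into lysosomes, endosomes and synaptic vesicles, and across the plasma membrane of some epithelia. Its cytosolic V1 sector splits ATP at alternating A and B subunits and turns a central stalk of D and F, while C, E, G and H form the outer stalks that hold V1 to the membrane. In the membrane V0 sector a ring of c and c″ subunits turns against the a subunit, with d joining the ring to the stalk and e a small membrane protein. In neurons the proton gradient drives the loading of neurotransmitter into synaptic vesicles and keeps lysosomes acidic.

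The libraries hold RNA from heads of adult female Drosophila melanogaster of 3 genotypes: elav>Nab2-FLAG, elav>Atx2-3xFLAG, and elav>Gal4 alone as the control. elav drives expression in neurons, so the tagged RNA-binding proteins Nab2 and Atx2 were made there, whereas the heads also hold eye, glia, fat body and muscle, and all 3 genotypes carry the driver. Each of 12 lysates came from 300 pooled heads fixed in 1% formaldehyde for 30 minutes. Of each lysate 80% went through anti-FLAG immunoprecipitation (RIP) and 20% was kept as Input, which gave 24 libraries in 6 groups of 4. The purpose stated for the series was to find RNAs that associate with Nab2 and Atx2 in brain neurons. Heads in bulk give 1 sum over all cell types, so fewer cells of a type and less RNA per cell cannot be told apart.

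Libraries held 220894 to 2109561 counts, the lowest 2 being replicate 3 of the Nab2-FLAG RIP and replicate 3 of the control RIP. Mitochondrially encoded genes took 14.4% to 20.0% of the counts in RIP libraries and 24.8% to 33.9% in Input libraries. Nab2 itself was higher in Nab2-FLAG than in control heads by 2.06 ± 0.16 (SE) on the log2 scale in RIP and 2.25 ± 0.20 in Input (edgeR adjusted p = 1.15e-12 and 7.11e-12). Atx2 differed by 0.18 ± 0.10 and 0.09 ± 0.11 between Atx2-3xFLAG and control libraries (edgeR adjusted p = 0.213 and 0.678), so its counts do not check that label.

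Of the pump genes left out by the filter, 13 had at most 1 count in any library and 9 counts in total. These were Vha68-3 (A), Vha36-2 (D), Vha14-2 (F), Vha100-3, Vha100-4 and Vha100-5 (a), Vha16-2, Vha16-3, Vha16-4 and Vha16-5 (c), VhaPPA1-2 (c″), VhaAC39-2 (d) and VhaM9.7-d (e). For the 8 of them with no count in any library, the 23897491 counts sequenced allow a level of up to 0.126 CPM. That value takes 3 counts over all libraries as the limit, and CPM there is the share of all counts times 1e6. The CPM of single libraries given below are instead counts divided by the TMM-scaled library size, times 1e6. The other gene left out, Vha36-3 (D), had 107 counts in 20 of 24 libraries, with at most 13 in any of them. Each subunit encoded by several paralogs thus had at least 1 paralog with 4 counts or fewer over all 24 libraries. Vha68-3 starts 178 bases after the end of Vha68-2 on 2L, and Vha100-4 ends 517 bases before Vha100-2 on 3R, so a paralog with hardly any counts can lie directly beside a counted one.

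**Figure D1:**
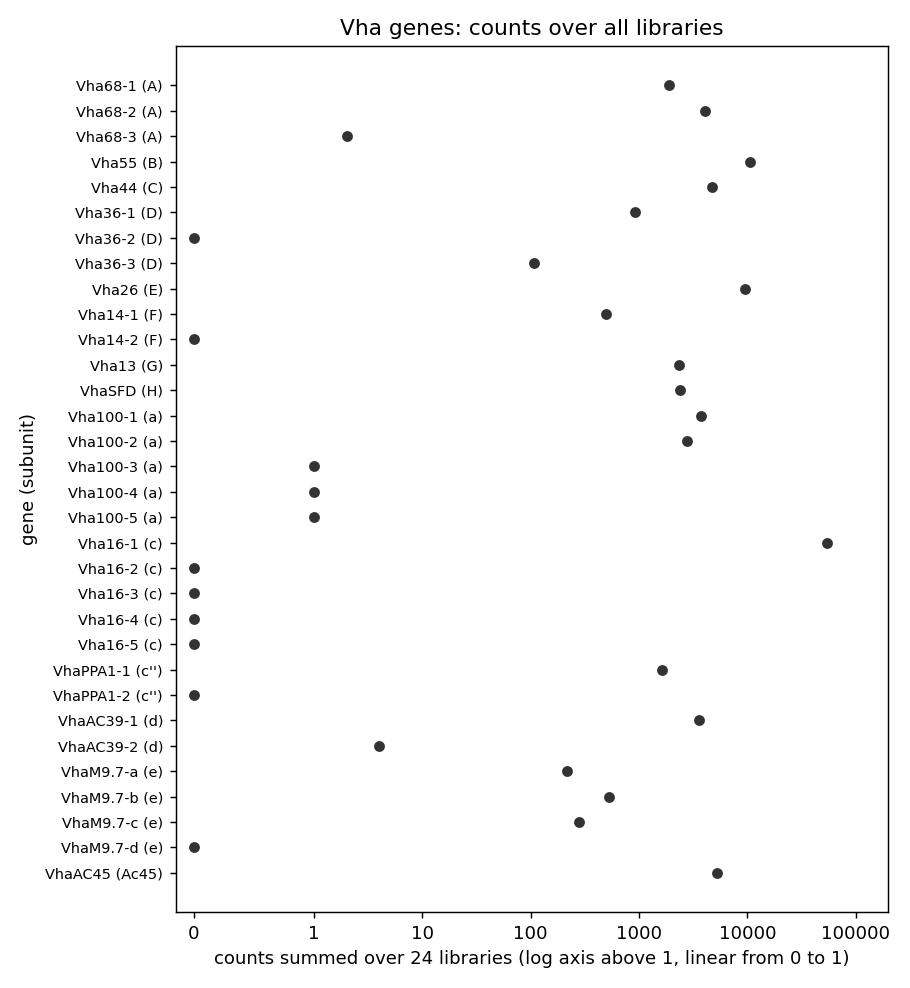
Counts of each of the 32 Vha genes summed over 24 libraries, with the subunit in brackets; the horizontal axis is logarithmic above 1 and linear from 0 to 1. A group of 13 genes lies at 4 counts or fewer, Vha36-3 at 107, and the 18 genes that passed the filter at 217 or more.

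Subunits A and a each had a pair of paralogs with many counts, and e had 3 (VhaM9.7-a, VhaM9.7-b and VhaM9.7-c). Subunits B, C, E, G and H had 1 gene each, namely Vha55, Vha44, Vha26, Vha13 and VhaSFD, and all 5 were counted in every library. Vha16-1, the counted gene of the c subunit that fills most of the membrane ring, had 54367 counts and made up 44.6% to 55.6% of all Vha counts in a library. Counts are not per transcript length, so they do not order the genes by level. Together the Vha genes took 0.469% to 0.533% of the counts in Nab2-FLAG RIP libraries, 0.512% to 0.555% in Atx2-3xFLAG RIP and 0.388% to 0.445% in control RIP. In Input they took 0.387% to 0.436% with Nab2-FLAG, 0.385% to 0.456% with Atx2-3xFLAG and 0.311% to 0.387% in controls. The RIP shares of both tagged genotypes lay above those of the control. In Input the ranges of Atx2-3xFLAG and control overlapped, and the lowest Nab2-FLAG library was level with the highest control, at 0.3875% each. Without Vha16-1, the Vha shares of both tagged genotypes lay above the controls in Input as well as in RIP. The Input shares were then 0.200% to 0.216% with Nab2-FLAG, 0.199% to 0.215% with Atx2-3xFLAG and 0.149% to 0.187% in controls. With counts scaled by library size alone, the median gene was also higher than control in both tagged genotypes, as given below. The Vha shares are of all counts, and the mitochondrially encoded share above was lower in RIP than in Input. Its part in the Vha shares was not tested.

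Of the 18 tested pump genes, 7 passed the test in at least 1 comparison between genotypes, namely Vha13 (G), Vha14-1 (F), Vha26 (E), Vha68-2 (A), Vha100-1 and Vha100-2 (both a) and Vha16-1 (c). Changes were tested with edgeR's quasi-likelihood test on all 6147 genes, with Benjamini-Hochberg adjusted p under 0.05 as the threshold. In RIP libraries of Nab2-FLAG against control, Vha13 and Vha14-1 were higher (10.7% of all genes tested) and Vha68-2 was lower (9.29% of all genes). In RIP libraries of Atx2-3xFLAG against control, Vha13, Vha14-1 and Vha16-1 were higher (12.1% of all genes), and Vha68-2 and Vha100-2 lower (12.1%). In Input of Nab2-FLAG against control, Vha13 and Vha26 were higher (7.35% of all genes) and none was lower (4.85%). In Input of Atx2-3xFLAG against control, Vha13, Vha14-1 and Vha26 were higher (8.91%) and none was lower (7.63%). Between Nab2-FLAG and Atx2-3xFLAG, Vha100-1 was called, higher with Nab2-FLAG, in RIP (4.34% of all genes called, 2.44% higher and 1.90% lower) and in Input (4.26% called, 2.62% higher and 1.64% lower). Where any pump gene was called in a direction, the calls were 5.56% to 16.7% of the 18, near the shares of all genes beside them, so the counts themselves show nothing particular to the pump.

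The 4 comparisons with the control use the same control libraries within a pool, so the Nab2-FLAG and Atx2-3xFLAG differences are not independent of each other. The median log2 difference of the 18 genes against control in RIP was 0.12 with Nab2-FLAG and -0.16 with Atx2-3xFLAG, beside -0.01 and -0.03 over all genes. In Input it was 0.14 and -0.05, beside -0.02 and -0.01 over all genes. Scaling by library size alone put the median of all genes against control at 0.13 to 0.24, and with it no Vha gene was called lower: 5 were higher and 0 lower for Nab2-FLAG in RIP, 6 higher and 0 lower for Atx2-3xFLAG in RIP and in Input, and 3 higher and 0 lower for Nab2-FLAG in Input.

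**Figure D2:**
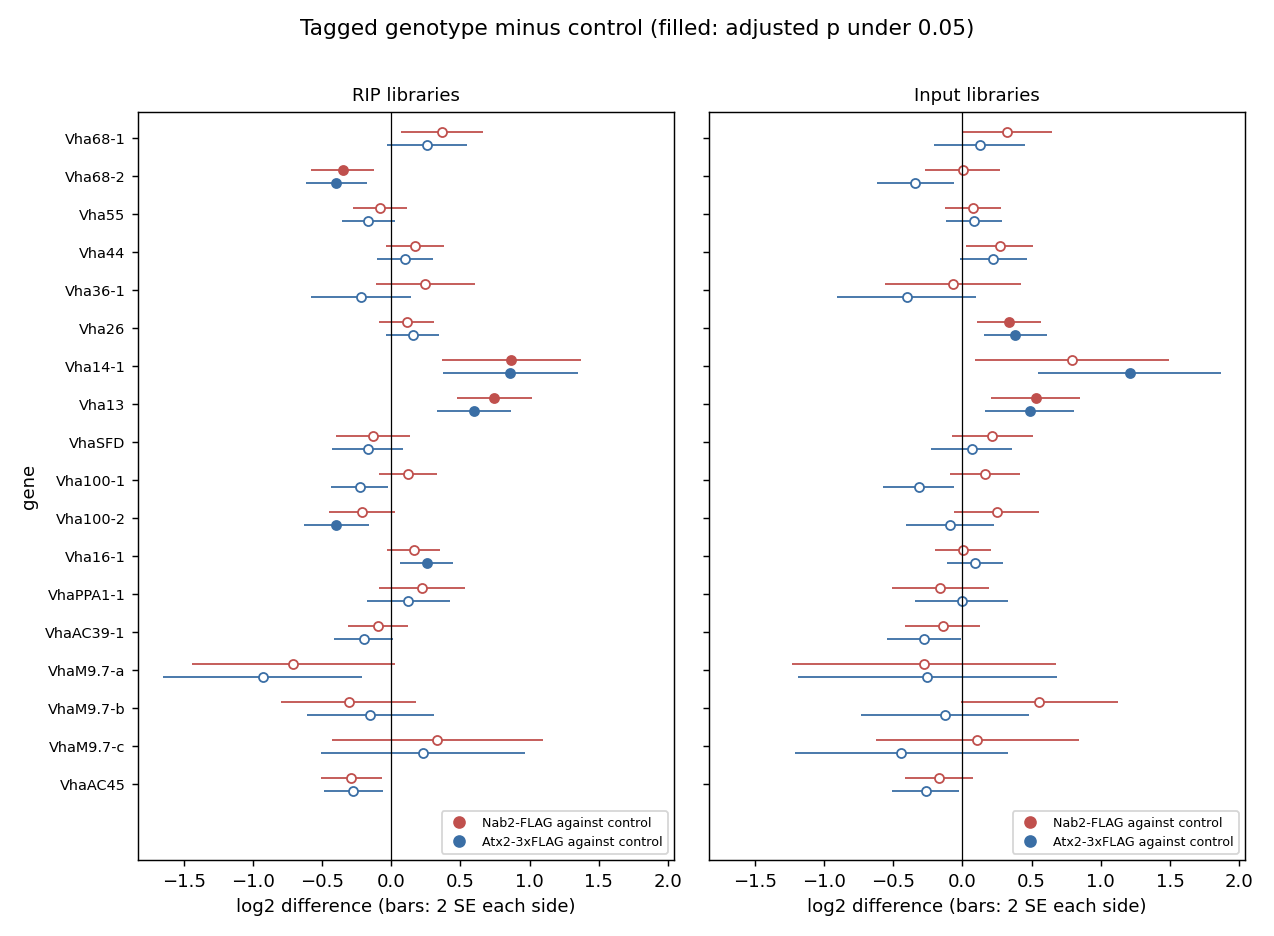
Log2 difference of each tested Vha gene, tagged genotype minus control, in RIP (left) and Input (right) libraries, with bars of 2 SE each side and filled points for adjusted p under 0.05 (edgeR, n = 4 libraries per group). Vha13 is filled in all 4 comparisons, at 0.49 to 0.75, and the widest bars belong to VhaM9.7-a and VhaM9.7-c, of the e subunit.

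The G subunit gene Vha13, part of the outer stalks (FBgn0283536, 3R:19643018-19644386), was the pump gene called in the most comparisons. In RIP it had 111, 122, 107 and 113 CPM with Nab2-FLAG and 106, 90.8, 108 and 110.4 CPM with Atx2-3xFLAG, against 52.8, 68.7, 101 and 68.6 CPM in controls. Every Nab2-FLAG library lay above every control library, whereas control replicate 3, at the lowest depth of all, lay within the Atx2-3xFLAG range. The log2 differences from control were 0.75 ± 0.14 with Nab2-FLAG and 0.60 ± 0.13 with Atx2-3xFLAG (edgeR adjusted p = 6.53e-05 and 0.000673). Both calls held in all 18 alternative settings.

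In Input, Vha13 had 107, 99.4, 93.2 and 82.8 CPM with Nab2-FLAG and 78.4, 99.5, 106 and 93.2 CPM with Atx2-3xFLAG, against 64.9, 55.7, 62.6 and 84.7 CPM in controls. Control replicate 4 reached into both tagged ranges. The log2 differences were 0.53 ± 0.16 and 0.49 ± 0.16 (edgeR adjusted p = 0.0206 and 0.0293). DESeq2 did not call either one (adjusted p = 0.0721 and 0.0828), and 5 of 12 single-library removals ended each call. For Nab2-FLAG these were control replicates 1, 2 and 3 and Nab2-FLAG replicates 1 and 2 (edgeR adjusted p = 0.0532 to 0.0999). For Atx2-3xFLAG they were control replicates 1, 2 and 3 and Atx2-3xFLAG replicates 2 and 3 (edgeR adjusted p = 0.0621 to 0.118).

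Vha14-1 codes for the F subunit, which turns in the central stalk (FBgn0262512, 2R:15679426-15680084), and had the highest differences from control of the pump genes on few counts, 497 over all libraries. In RIP it had 22.2, 24.6, 20.7 and 22.9 CPM with Nab2-FLAG and 24.1, 24.4, 20.9 and 23.2 CPM with Atx2-3xFLAG, against 11.8, 9.36, 14.5 and 14.9 CPM in controls. All 8 tagged libraries lay above all 4 controls. The fitted fold was 1.82 for each tagged genotype, with log2 values of 0.87 ± 0.25 for Nab2-FLAG and 0.86 ± 0.24 for Atx2-3xFLAG (adjusted p = 0.0109 and 0.0077, edgeR). Without control replicate 2 the log2 differences were 0.71 and 0.70 and the edgeR adjusted p 0.067 and 0.0539, the only setting of 18 that ended either call.

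In Input, Vha14-1 had 19.1, 16.7, 21.5 and 24.2 CPM with Nab2-FLAG and 22.8, 16.6, 33.9 and 30.6 CPM with Atx2-3xFLAG, against 11.5, 17, 3.91 and 11.9 CPM in controls. Control replicate 3 was far below the rest, and control replicate 2 overlapped the lowest library of each tagged genotype. The difference was 1.21 ± 0.33 for Atx2-3xFLAG (edgeR adjusted p = 0.00671), a call that held in all 17 alternative settings. For Nab2-FLAG it was 0.79 ± 0.35, the highest value of the comparison but not past the threshold (edgeR adjusted p = 0.151). The tagged genotypes were not shown to differ from each other, with a Nab2-FLAG minus Atx2-3xFLAG difference of -0.42 and an interval of 2 SE each side from -0.98 to 0.15.

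Vha26 codes for the E subunit, the partner of G in the outer stalks (FBgn0283535, 3R:5591763-5595356). In Input it had 346, 368, 379.9 and 419.9 CPM with Nab2-FLAG and 392, 426, 328 and 423 CPM with Atx2-3xFLAG, against 239, 317, 307 and 335 CPM in controls. The Nab2-FLAG libraries all lay above the controls (14.9% of all genes had groups that did not overlap here), and 1 Atx2-3xFLAG library fell among them. The log2 differences were 0.33 ± 0.12 and 0.38 ± 0.12 (edgeR adjusted p = 0.0487 and 0.0146). The Nab2-FLAG call was lost in 11 of 17 alternative settings, among them the removal of control replicates 1, 2 or 3, any Nab2-FLAG replicate, or Atx2-3xFLAG replicates 1 or 2 (0.23 to 0.37; edgeR adjusted p = 0.0521 to 0.275). The Atx2-3xFLAG call was lost without control replicate 1 (0.29, adjusted p = 0.126) and without Atx2-3xFLAG replicate 2 (0.34, adjusted p = 0.0554). In RIP the gene did not pass the test in either tagged genotype, with differences of 0.11 ± 0.10 and 0.15 ± 0.10.

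**Figure D3:**
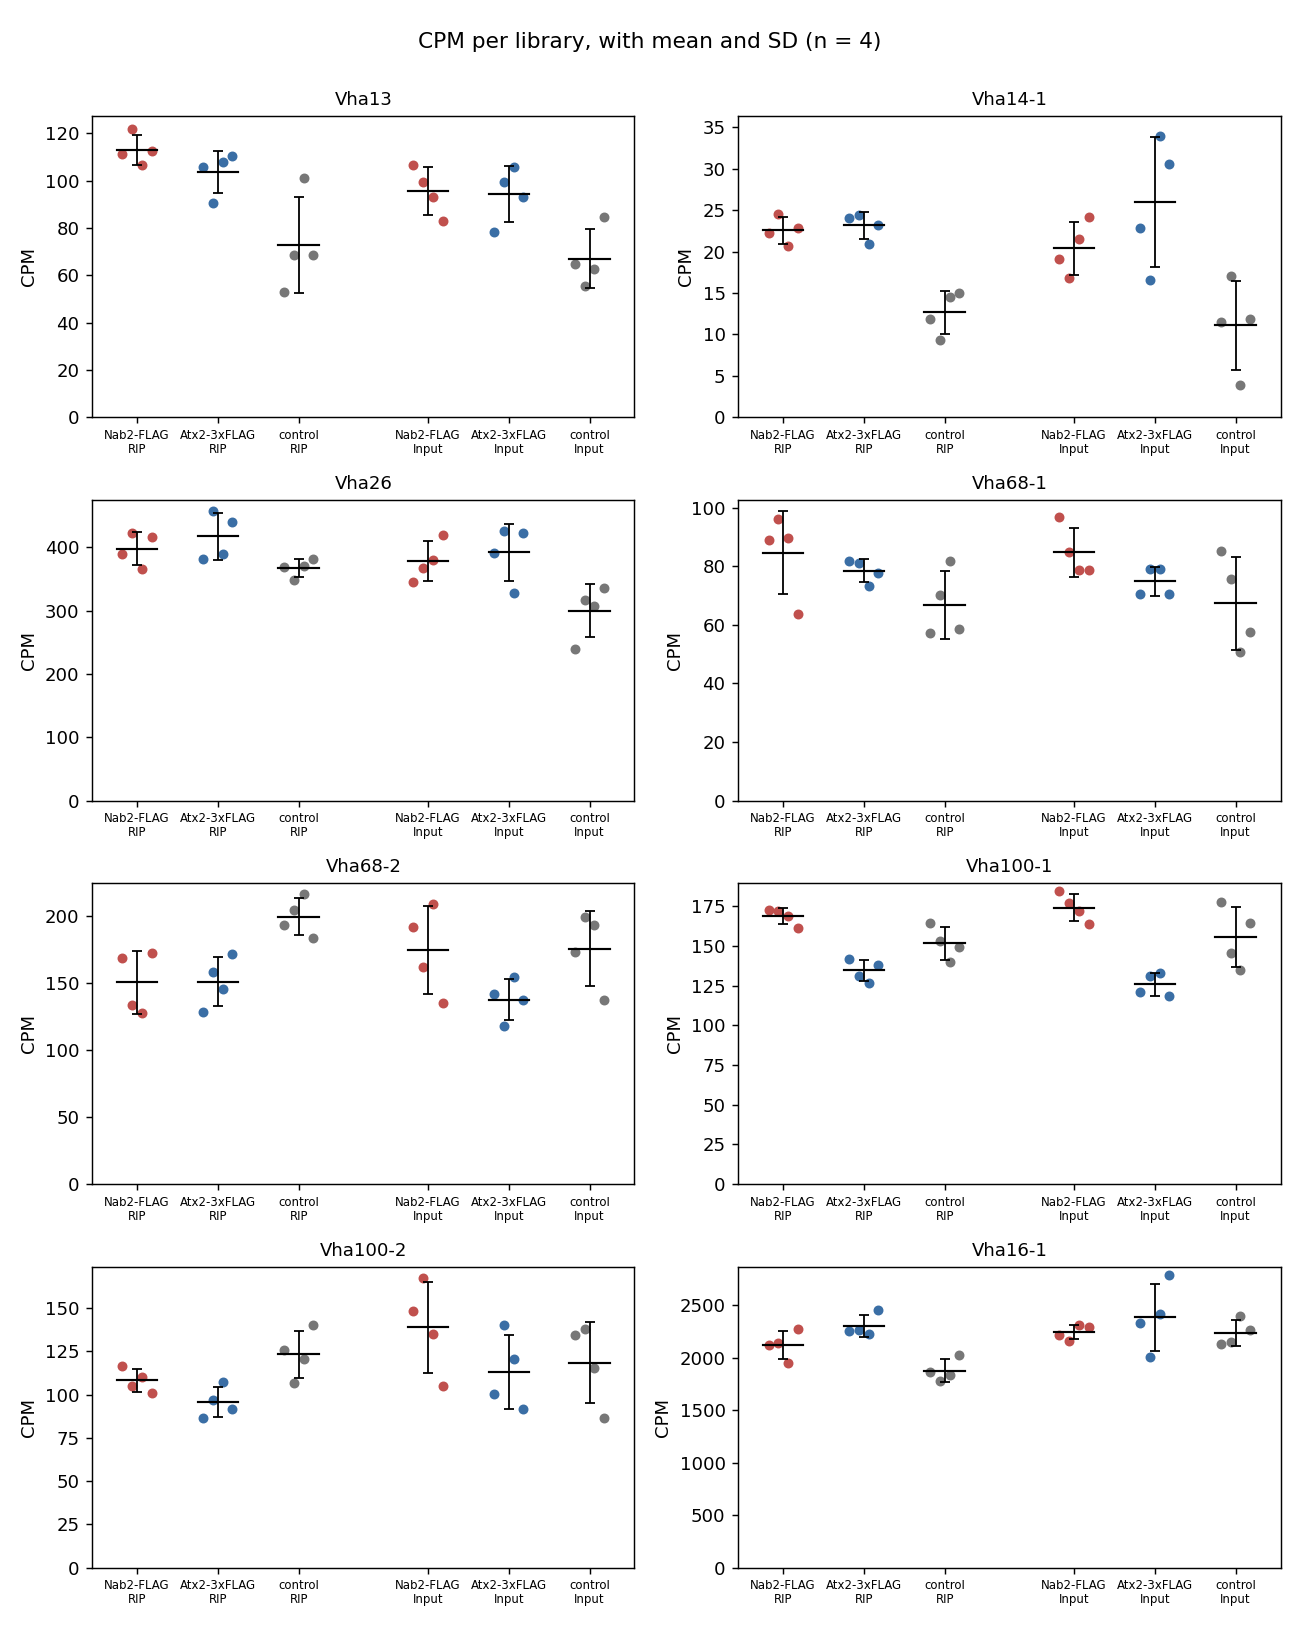
CPM of 8 Vha genes in each of the 24 libraries (points), with the mean and SD of each group of 4; the vertical axes start at 0 and differ between genes. All tagged RIP libraries of Vha14-1, at 20.7 to 24.6 CPM, sit above the control RIP libraries, at 9.36 to 14.9 CPM, and those of Vha68-2, at 127 to 173 CPM, sit below the controls, at 184 to 217 CPM.

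The A subunit, which binds and splits ATP, is made from Vha68-1 and Vha68-2, and Vha68-2 was lower in RIP of both tagged genotypes. Vha68-2 (FBgn0263598, 2L:12974322-12978607) had 169, 134, 127 and 173 CPM in Nab2-FLAG RIP libraries and 129, 159, 146 and 172 CPM in Atx2-3xFLAG RIP libraries, against 194, 204, 217 and 184 CPM in controls. No tagged library reached the lowest control. It was lower by log2 differences of -0.35 ± 0.11 and -0.40 ± 0.11 (edgeR adjusted p = 0.0243 and 0.00696).

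The Atx2-3xFLAG call of Vha68-2 was lost under scaling by library size alone (-0.18), and the Nab2-FLAG call in 8 of 18 alternative settings. The settings that ended the Nab2-FLAG call included the removal of control replicates 2 or 3 or Nab2-FLAG replicates 2 or 3 (-0.27 to -0.33; edgeR adjusted p = 0.0613 to 0.131). Vha68-1 (2L:13000770-13004107) had 88.8, 96.3, 89.6 and 63.8 CPM in Nab2-FLAG RIP libraries and 81.9, 81.0, 73.3 and 77.5 CPM in Atx2-3xFLAG RIP libraries, against 57.1, 70.2, 81.9 and 58.4 CPM in controls. Both tagged ranges overlapped the controls, and its differences of 0.37 ± 0.15 and 0.26 ± 0.14 did not pass the threshold (edgeR adjusted p = 0.0728 and 0.2).

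Set against each other, Vha68-1 took 34.5%, 41.9%, 41.3% and 27.0% of the counts of the pair in Nab2-FLAG RIP libraries and 38.9%, 33.8%, 33.5% and 31.1% in Atx2-3xFLAG RIP libraries, against 22.7%, 25.6%, 27.4% and 24.1% in controls. All Atx2-3xFLAG shares lay above the controls, and 1 Nab2-FLAG share fell among them. In Input the share averaged 33.0% ± 4.00 with Nab2-FLAG, 35.3% ± 3.27 with Atx2-3xFLAG and 27.7% ± 5.12 in controls (SD, n = 4 each). All Atx2-3xFLAG shares lay above the controls in Input too, the lowest at 33.18% beside 32.96% in the highest control. The Nab2-FLAG shares in Input overlapped the controls. Each library's share rests on 62 to 638 counts of the pair, so the Clopper-Pearson 95% interval ran from 29.0% to 54.4% for Nab2-FLAG RIP replicate 3, the widest, and from 30.8% to 38.3% for replicate 1, the narrowest. The share was chosen after the values were seen and carries no test, and how reads common to both paralogs were counted is not given in the sources used here.

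**Figure D4:**
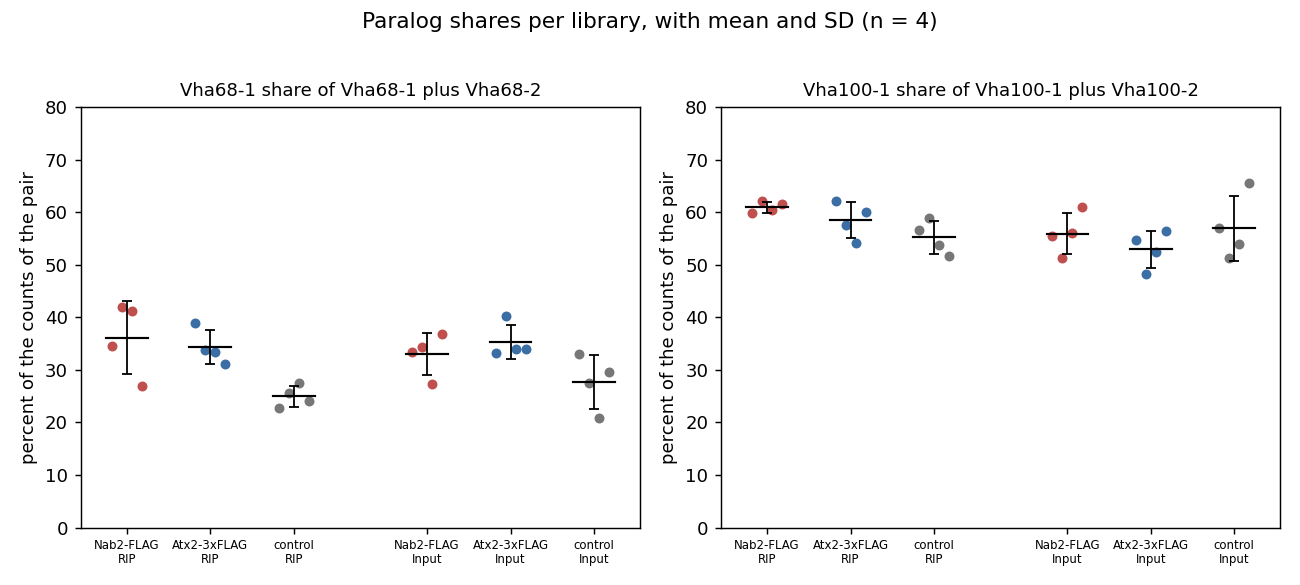
Share of Vha68-1 in the counts of Vha68-1 plus Vha68-2 (left) and of Vha100-1 in those of Vha100-1 plus Vha100-2 (right), per library, in percent, with the mean and SD of each group of 4. The Vha68-1 share of Atx2-3xFLAG RIP libraries, from 31.1% to 38.9%, sits above that of control RIP libraries, from 22.7% to 27.4%. In Input the Atx2-3xFLAG libraries, at 33.18% or more, also sit above the controls, at 32.96% or less.

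The other V1 genes did not pass the test between genotypes. The B subunit gene Vha55, whose subunit shares the nucleotide sites with A, averaged 422 ± 34.3 CPM in Nab2-FLAG RIP, 406 ± 8.82 in Atx2-3xFLAG RIP and 449 ± 36.5 in control RIP (SD, n = 4 each). The C subunit gene Vha44, which overlaps Hmgs, had differences between 0.10 and 0.27 against control in all 4 comparisons (smallest edgeR adjusted p = 0.154). Vha36-1, for the stalk subunit D, had the highest RIP difference between Nab2-FLAG and Atx2-3xFLAG, 0.47 ± 0.17 (edgeR adjusted p = 0.112). VhaSFD, for the regulatory H subunit, ranged from -0.17 to 0.22.

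The a subunit carries the path by which protons enter and leave the ring, and Vha100-1 is known in flies as a neuronal form needed at photoreceptor synapses. Vha100-1 (FBgn0028671, 3R:29131193-29137980, overlapping Alg13) was higher in Nab2-FLAG than in Atx2-3xFLAG heads in both pools. In RIP it had 173, 172, 169 and 161 CPM with Nab2-FLAG against 142, 131, 127 and 138 CPM with Atx2-3xFLAG, while controls had 165, 153, 139.7 and 149 CPM. In Input it had 184, 177, 172 and 164 CPM with Nab2-FLAG against 121, 131, 133 and 119 CPM with Atx2-3xFLAG, while controls had 177, 145, 135 and 164 CPM. The tagged groups did not overlap in RIP (11.1% of all genes) or Input (9.68%). Controls reached into both tagged ranges in RIP and into the Nab2-FLAG range in Input.

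The Nab2-FLAG minus Atx2-3xFLAG difference of Vha100-1 was 0.35 ± 0.10 in RIP and 0.48 ± 0.12 in Input (edgeR adjusted p = 0.0312 and 0.0144). The RIP call was lost in 9 of 18 alternative settings, among them DESeq2 (adjusted p = 0.0749) and the removal of Nab2-FLAG replicates 1, 2 or 4 or Atx2-3xFLAG replicates 2 or 3 (edgeR adjusted p = 0.0509 to 0.127). The Input call was lost under library size scaling (0.40, adjusted p = 0.169) and without Nab2-FLAG replicates 1 or 2 or Atx2-3xFLAG replicate 1 (edgeR adjusted p = 0.0537 to 0.0663). Against control neither tagged genotype passed, with -0.31 ± 0.13 the lower of the Input differences, for Atx2-3xFLAG (edgeR adjusted p = 0.0883).

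Its paralog Vha100-2 (FBgn0028670, 3R:18390323-18399169, overlapping Vti1b) had 116, 105, 110.3 and 101 CPM in Nab2-FLAG RIP libraries and 86.7, 97.1, 107 and 91.6 CPM in Atx2-3xFLAG RIP libraries, against 126, 107, 120.4 and 139.9 CPM in controls. The highest library of each tagged group reached the lowest control. It was lower with Atx2-3xFLAG by a log2 difference of -0.40 ± 0.12 (edgeR adjusted p = 0.0108), a call lost by DESeq2 (adjusted p = 0.0523), by library size scaling (-0.18) and without control replicate 4 (-0.28, edgeR adjusted p = 0.118). The Vha100-1 share of the pair ranged from 59.8% to 62.1% in Nab2-FLAG RIP, 54.1% to 62.1% in Atx2-3xFLAG RIP and 51.6% to 58.9% in control RIP. Whether reads were counted by strand is not given in the sources used here, and without strand the reads of either gene and its overlapping neighbour cannot be told apart.

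Vha16-1 (FBgn0262736, 2R:6625242-6633090) had 2123, 2141, 1950.3 and 2273 CPM in Nab2-FLAG RIP libraries and 2260.2, 2262, 2224 and 2459.6 CPM in Atx2-3xFLAG RIP libraries, against 1867, 1779, 1840.2 and 2029.9 CPM in controls. Only the Atx2-3xFLAG group lay wholly above the controls. Its difference was 0.26 ± 0.10 (edgeR adjusted p = 0.0445), beside 0.16 ± 0.10 for Nab2-FLAG (edgeR adjusted p = 0.257). Removing any of 7 libraries ended the Atx2-3xFLAG call: control replicates 1 or 2, Nab2-FLAG replicates 1 or 4, and Atx2-3xFLAG replicates 2, 3 or 4 (0.22 to 0.29; edgeR adjusted p = 0.0522 to 0.117). In Input it averaged 2246 ± 70.2 CPM with Nab2-FLAG, 2386 ± 320.0 with Atx2-3xFLAG and 2236 ± 122 in controls (SD, n = 4 each).

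The other V0 genes did not pass between genotypes. VhaM9.7-a, for the small e subunit, had the lowest RIP difference in both tagged genotypes, -0.71 ± 0.37 with Nab2-FLAG and -0.93 ± 0.36 with Atx2-3xFLAG (edgeR adjusted p = 0.185 and 0.0549), on 217 counts over all libraries. Its Input difference of -0.28 ± 0.48 was also the lowest for Nab2-FLAG, and VhaM9.7-c had the lowest for Atx2-3xFLAG at -0.44 ± 0.38 (edgeR adjusted p = 0.797 and 0.505). VhaM9.7-b had the highest Input difference between Nab2-FLAG and Atx2-3xFLAG, 0.68 ± 0.27 (edgeR adjusted p = 0.165), and the lowest in RIP, -0.15 ± 0.22 (edgeR adjusted p = 0.828). VhaPPA1-1, for c″, lay between -0.16 and 0.22 against control. VhaAC39-1, for d, was between -0.28 and -0.10.

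The accessory gene VhaAC45 had 193, 184, 186 and 192 CPM in Nab2-FLAG RIP libraries, against 215, 211, 260.1 and 246 CPM in controls. These groups did not overlap, as for Vha13, Vha14-1 and Vha68-2 (18.6% of all genes), but the difference of -0.29 ± 0.11 did not pass the threshold (edgeR adjusted p = 0.056). For Atx2-3xFLAG it was -0.27 ± 0.11 (edgeR adjusted p = 0.0545), with 1 library reaching the control range. In the Atx2-3xFLAG RIP comparison the groups of Vha14-1, Vha16-1 and Vha68-2 did not overlap (22.9% of all genes), and in its Input comparison those of Vha100-1 and VhaAC39-1 (17.1%).

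Recovery of pump transcripts by the immunoprecipitation itself was read from RIP against Input within lysates. In the control, which has no tagged protein, Vha26 was higher in RIP by 0.30 ± 0.09 and Vha16-1 was lower at -0.25 ± 0.07 (7.43% of all genes called, 3.01% higher and 4.42% lower), with edgeR adjusted p of 0.0238 and 0.0125. Scaling by library size alone turned the Vha16-1 value to 0.17, moved the median of all genes to 0.39 and gave 8 pump genes higher and 0 lower. How many of all genes were called under that scaling is not given here, so this count is not a result about the pump. The Vha26 call was lost by DESeq2 (adjusted p = 0.0834) and without control replicate 1 (0.19, edgeR adjusted p = 0.348), and the Vha16-1 call was lost without control replicate 2 or 3 (edgeR adjusted p = 0.0893 and 0.1). The highest and lowest control values were 0.63 ± 0.44 for VhaM9.7-a and -0.86 ± 0.40 for VhaM9.7-c (edgeR adjusted p = 0.445 and 0.212).

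With Nab2-FLAG no pump gene was called in RIP against Input by edgeR (7.82% of all genes called, 3.42% higher and 4.41% lower) or DESeq2. At unadjusted edgeR p under 0.05 there were 3 of 18, beside 20.5% of all genes. The values ran from -0.71 ± 0.25 for VhaM9.7-b to 0.25 ± 0.16 for VhaPPA1-1. Called lower were 2 without Nab2-FLAG replicate 4, and 1 without control replicate 4 or without Atx2-3xFLAG replicate 1. With Atx2-3xFLAG none was called by edgeR (7.76% of all genes called, 4.00% higher and 3.76% lower) or DESeq2. At unadjusted edgeR p under 0.05 there was 1 of 18, Vha55 at -0.18 ± 0.08, beside 20.2% of all genes. The values there ran from -0.36 ± 0.43 for VhaM9.7-a to 0.14 ± 0.13 for Vha13. Scaling by library size alone called 9 pump genes higher with Nab2-FLAG and 8 with Atx2-3xFLAG, and 0 lower, with the median of all genes at 0.37. Here too the share of all genes called under that scaling is not given, so these counts are not a result about the pump. RIP and Input libraries were pooled and sequenced apart, so pool and immunoprecipitation cannot be told apart in these differences.

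Association with a tagged protein was taken as the RIP-to-Input difference of the tagged genotype minus that of the control, which cancels what is common to a pool. No pump gene passed for Nab2-FLAG (0.0976% of all genes passed), for Atx2-3xFLAG (0.0488%) or between them (0%), with edgeR or with DESeq2. At unadjusted p under 0.05 there were 4, 2 and 1 pump genes, beside 440, 340 and 224 of all 6147 genes. For Nab2-FLAG these were VhaPPA1-1 at 0.51 ± 0.24, Vha68-2 at -0.36 ± 0.16, Vha100-2 at -0.43 ± 0.19 and VhaM9.7-b at -0.84 ± 0.38 (smallest edgeR adjusted p = 0.592). For Atx2-3xFLAG they were Vha16-1 at 0.20 ± 0.10 and Vha55 at -0.23 ± 0.11 (smallest edgeR adjusted p = 0.877). Between the tagged genotypes it was VhaM9.7-b at -0.80 ± 0.36, the lowest value, and the highest was 0.42 ± 0.36 for Vha14-1.

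VhaM9.7-b and Vha55 were the pump genes whose RIP-to-Input ratios did not overlap between a tagged genotype and the control. For VhaM9.7-b the log2 ratio of RIP to Input was -0.47, -0.74, -0.83 and -0.73 in the Nab2-FLAG lysates, -0.52, -0.47, 0.38 and 0.81 in the Atx2-3xFLAG lysates and 0.27, 0.13, -0.43 and 0.24 in the control lysates. All Nab2-FLAG lysates lay below all control lysates, by 0.03 at the nearest pair (4.20% of all genes had lysates that did not overlap in this comparison), and the Atx2-3xFLAG lysates spanned both. For Vha55, the B subunit gene, the log2 ratio was -0.07, -0.01, -0.23 and -0.17 in the Nab2-FLAG lysates, -0.19, -0.15, -0.13 and -0.25 in the Atx2-3xFLAG lysates and 0.04, -0.06, 0.10 and 0.11 in the control lysates. All Atx2-3xFLAG lysates lay below all control lysates (3.42% of all genes), whereas the Nab2-FLAG lysates overlapped them. Between the tagged genotypes the lysates of every tested pump gene overlapped (2.55% of all genes did not).

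Vha13 and Vha14-1, called higher in RIP of both tagged genotypes, had no association past the threshold. For Vha13 the values were 0.22 ± 0.21 with Nab2-FLAG and 0.13 ± 0.21 with Atx2-3xFLAG, so intervals of 2 SE each side ran from -0.20 to 0.64 and from -0.28 to 0.54. For Vha14-1 the intervals ran from -0.73 to 1.15 and from -1.11 to 0.69. The lowest and highest Atx2-3xFLAG values were -1.0 ± 0.62 for VhaM9.7-a and 0.83 ± 0.54 for VhaM9.7-c, both e subunit genes (edgeR adjusted p = 0.891 and 0.9).

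**Figure D5:**
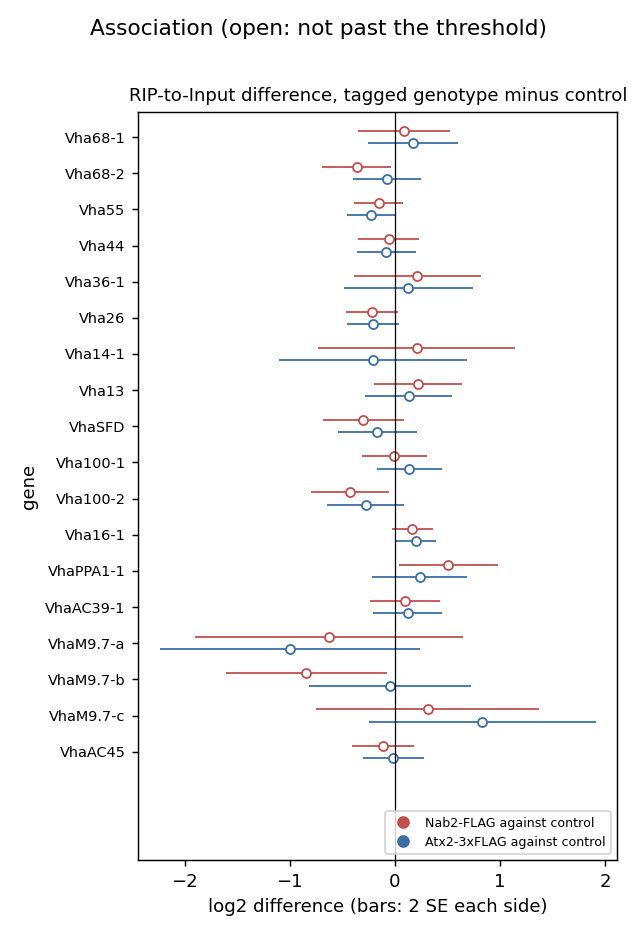
Association of each tested Vha gene, as the log2 RIP-to-Input difference of the tagged genotype minus that of the control, with bars of 2 SE each side (edgeR, 4 lysates per genotype). No point passed the threshold, and the widest bars are those of Vha14-1 and the VhaM9.7 genes.

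The authors' deposited table lists 17 of the pump genes among 5760 genes, with the ratio of percent input to the control and a Dunnett p. In the authors' deposited table Vha55 was the only one of them past 0.05, with ratios of 0.892 for Nab2-FLAG (p = 0.0284) and 0.844 for Atx2-3xFLAG (p = 0.0037), both below the control; 1.84% and 1.47% of all genes with a p there were lower. The fit of counts gave Vha55 associations of -0.15 ± 0.12 and -0.23 ± 0.11 (edgeR adjusted p = 0.811 and 0.877). Ratios above 1 were listed for 6 of 17 pump genes with Nab2-FLAG and 7 of 17 with Atx2-3xFLAG in the authors' deposited table. The highest in the authors' deposited table was 3.42 for VhaM9.7-c with Atx2-3xFLAG (Dunnett p = 0.1718). VhaM9.7-c had 277 counts over all libraries and 0 CPM in control RIP replicate 3. The fit of counts gave it 0.83 ± 0.54 with Atx2-3xFLAG (edgeR adjusted p = 0.9).

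Other genes of the acidified compartments were counted from lists chosen with earlier results of these data known. Of 5 assembly factors and regulators of the pump (Rbcn-3A, Rbcn-3B, ATP6AP2, Mitf and Vma21, listed as CG5969), 4 were tested and none was called by edgeR in any of the 12 comparisons. Of 20 lysosomal genes, 16 were tested. In RIP, 3 were higher and 4 lower with Nab2-FLAG (10.7% and 9.29% of all genes), and 3 higher and 5 lower with Atx2-3xFLAG (12.1% in each direction). In Input, 2 were higher and 2 lower with Nab2-FLAG (7.35% and 4.85% of all genes), and 1 was higher and 3 lower with Atx2-3xFLAG (8.91% and 7.63%). spin, a lysosomal membrane transporter, was lower in all 4 comparisons, with log2 differences of -0.67 and -1.0 in RIP and -1.02 and -1.06 in Input for Nab2-FLAG and Atx2-3xFLAG. Gba1b, a glucocerebrosidase, was lower with Nab2-FLAG in RIP (-0.84) and in Input (-0.86), and Hexo2, a hexosaminidase, had the lowest value with Atx2-3xFLAG in RIP (-1.07). Ppt2, a palmitoyl-protein thioesterase, was higher with Nab2-FLAG in RIP (1.08), and Cln7, a lysosomal membrane protein, was higher with Nab2-FLAG in Input (0.73).

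Among the vesicular neurotransmitter transporters, which exchange vesicle protons for transmitter, 4 of 5 were tested. VAChT was higher and VGlut lower in RIP of both tagged genotypes and in Input of Atx2-3xFLAG; the RIP differences were 0.38 and 0.42 for VAChT and -0.39 and -0.54 for VGlut. Of 9 endolysosomal trafficking genes 8 were tested, and Rab7, the late endosome GTPase, was higher in RIP of both genotypes (0.69 and 0.66) and in Input of Atx2-3xFLAG (0.43). No gene of these 4 lists passed for association in either tagged genotype.

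Marker genes of head tissues also differed between the genotypes in which the pump genes were compared. Summed photoreceptor markers, 10 of 10 matched and none at 0 in any group, were 40247 to 42430.2 CPM in Nab2-FLAG RIP libraries and 42005 to 44645 CPM in Atx2-3xFLAG RIP libraries, against 62929 to 78378 CPM in controls. The sum follows its most abundant genes, ninaE and Arr2. In RIP, 6 of the 10 genes were lower and 1 was higher with each tagged genotype (edgeR). Of all genes, 9.29% were lower and 10.7% higher there with Nab2-FLAG, and 12.1% in each direction with Atx2-3xFLAG. In Input, 4 of the 10 were lower and 1 higher with Nab2-FLAG (4.85% and 7.35% of all genes). With Atx2-3xFLAG 6 were lower and 1 higher (7.63% and 8.91%). Summed muscle markers, 8 of 8 matched with TpnC4 at 0 in 4 of 6 groups, were 6009 to 7704 CPM and 5280.5 to 6393 CPM in the tagged RIP groups, against 3613 to 4445 CPM in controls. Both sums differed in the same directions in Input, with no overlap between tagged and control libraries. Of 6 muscle markers tested, 6 were higher with Nab2-FLAG in RIP and in Input (10.7% and 7.35% of all genes). With Atx2-3xFLAG 5 were higher in RIP and in Input (12.1% and 8.91%), and none was lower in any of these comparisons.

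Neuron markers, 14 of 14 matched, summed to 4100.4 to 4370.3 CPM in Nab2-FLAG RIP, 4607 to 5838 CPM in Atx2-3xFLAG RIP and 3459 to 4224 CPM in control RIP. Of the 14 in RIP, 2 were higher and 1 lower with Nab2-FLAG (10.7% and 9.29% of all genes). With Atx2-3xFLAG 9 were higher and 0 lower (12.1% in each direction). In Input, 1 was higher and 1 lower with Nab2-FLAG (7.35% and 4.85%), and 5 higher and 0 lower with Atx2-3xFLAG (8.91% and 7.63%). The Input sums averaged 3509 CPM with Nab2-FLAG, 4154 CPM with Atx2-3xFLAG and 3632 CPM in controls. Glial markers, 8 of 8 matched, summed to 1811 to 1909 CPM in Nab2-FLAG RIP, 1431 to 1614 CPM in Atx2-3xFLAG RIP and 1213 to 1628 CPM in control RIP. Of the 8 in RIP, 3 were higher and 1 lower with Nab2-FLAG (10.7% and 9.29% of all genes). With Atx2-3xFLAG 2 were higher and 1 lower (12.1% in each direction). The glial gene repo went against the sum, at 25.9 to 32.4 CPM with Nab2-FLAG and 27.2 to 33.5 CPM with Atx2-3xFLAG. Control RIP libraries had 49.9 to 72.3 CPM of it. In Input, 3 of the 8 glial markers were higher and 0 lower with Nab2-FLAG (7.35% and 4.85% of all genes). None was called there with Atx2-3xFLAG (8.91% of all genes higher and 7.63% lower). Fat body markers, 8 of 9 matched, summed to 92195 to 96492 CPM in Nab2-FLAG RIP, 56548 to 75919.8 CPM in Atx2-3xFLAG RIP and 89206 to 124090.1 CPM in control RIP. The fat body markers moved in both directions: of 7 tested in RIP, 2 were higher and 3 lower with Nab2-FLAG (10.7% and 9.29% of all genes). With Atx2-3xFLAG 1 was higher and 5 lower (12.1% in each direction). Lsp2, a larval serum protein, was higher with log2 differences of 1.86 and 1.35, whereas Yp1, a yolk protein, was lower with -0.40 and -1.01. In Input, 2 of the 7 fat body markers were higher and 0 lower with Nab2-FLAG (7.35% and 4.85% of all genes). With Atx2-3xFLAG 1 was higher and 4 were lower in Input (8.91% and 7.63%). No neuron, glial or fat body marker was at 0 in any group. V-ATPase subunits are made in all of these tissues, and the part of these differences in the values of Vha13, Vha14-1, Vha26, Vha68-2, Vha100-1, Vha100-2 and Vha16-1 was not tested.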

How the data were processed

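Per the submitters' processing notes, reads were aligned with STAR 2.6.0b-1 to build BDGP6 and assigned to genes with featureCounts 1.6.3; the deposited values are raw counts per gene and library. The annotation, strand setting and treatment of reads shared by paralogs are not given in the sources used here. The authors' deposited table of percent input gave ratios to the control and p-values from Dunnett tests and ANOVA; its 24 per-sample columns were not used. The submitters' processing notes also name DESeq2 2.11.40.2.

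Counts were filtered with filterByExpr on the 6 groups and tested with edgeR 4.0.16 (R 4.3.3; TMM scaling, robust quasi-likelihood F test, two-sided, Benjamini-Hochberg over all 6147 genes). Genotypes were compared within the 12 libraries of a pool. RIP against Input and association used all 24 libraries with a term per lysate, because the series' design text pairs the RIP and Input library of a lysate; in 10 of 12 such pairs the deviations from the group means correlated at r above 0.1 over 2313 genes (median 0.18). CPM of a library are counts divided by its TMM-scaled library size, times 1e6. SE is the log2 difference over the square root of F, and a prior count of 2 was used for log2 ratios. Replicate libraries of a group differed beyond sampling noise (chi-square over its degrees of freedom, 1.43 to 8.20). Shares of counts carry exact Clopper-Pearson 95% intervals; these and the limit of 3 counts cover counting error only, as reads without molecular identifiers are not independent molecules.

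The scripts were tested on simulated data. The pump genes and the other lists were chosen with earlier results of these data known. The text names every pump gene past the threshold and the highest and lowest of each comparison, all paralogs of a subunit set side by side, and at most 3 called genes of another list per comparison. Alternatives were DESeq2 size factors in edgeR, library size only, no expression filter, the DESeq2 test (1.42.0), a replicate block, no lysate terms, each replicate left out and, added after seeing the data, the 2 shallowest RIP libraries left out. Each group is 4 separate lysates per the series' design text.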

Additional observations from a re-analysis of the deposited data

Results flagged for a closer look

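Among 114 groups of 4 libraries (the 18 tested pump genes and the library totals, over 6 groups), 4 held a library set apart from the other 3 by Dixon's test; chance alone marks about 1 in 20 groups, or 5.7 of these. Vha16-1 stood at 2459.6 CPM in Atx2-3xFLAG RIP replicate 4, above 2224 to 2262 CPM in the other replicates. VhaM9.7-b stood at 17.2 CPM in control RIP replicate 2, below 24.1 to 24.8 CPM in the others. VhaAC45 stood at 172 CPM in Nab2-FLAG Input replicate 4, below 239.6 to 242 CPM. Vha55 stood at 462 CPM in control Input replicate 3, above 422 to 428 CPM.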

How the results depend on the processing

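The main results were 0 to 5 pump genes called per comparison, and 177 recomputed counts stayed within 1.5 times the main count while 42 did not. Scaling by library size alone called 6 in Atx2-3xFLAG against control Input, where it called 1043 of all 6147 genes higher and 169 lower. It called 5 in Nab2-FLAG against control RIP and 0 between Nab2-FLAG and Atx2-3xFLAG in RIP and in Input. In RIP against Input it called 9 with Nab2-FLAG, 8 with Atx2-3xFLAG and 8 in the control, where Vha16-1 reversed to 0.17. Under this scaling the median of all genes stood at up to 0.39, and these counts are not a result about the pump. DESeq2 size factors called 1 in Nab2-FLAG against control Input. The DESeq2 test called 0 there, 0 between the tagged genotypes in RIP and 1 in control RIP against Input. Without an expression filter 0 were called between the tagged genotypes in RIP. A replicate block on the number shared between genotypes also called 0 there and moved no other such count beyond 1.5 times. It is a description only, since the labels do not say that equal numbers in different genotypes share a batch. Same-numbered libraries of different genotypes correlated above 0.1 in 4 of 12 RIP and 7 of 12 Input pairs. With no replicate block of lysates, RIP against Input called 0 in the control and 1 with Nab2-FLAG. With the 2 shallowest RIP libraries left out, control RIP against Input called 1.

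Each replicate was left out in turn, as 1 library within a pool and as a whole lysate in RIP against Input and the associations. This gave 1 to 4 calls for Atx2-3xFLAG and 0 to 2 for Nab2-FLAG against control in Input, and 4 to 6 and 1 to 4 in RIP. Between the tagged genotypes it gave 0 to 1 in either pool. In RIP against Input it gave 1 to 2 in the control, 0 to 2 with Nab2-FLAG and 0 with Atx2-3xFLAG. It gave 0 in all 3 associations. Over the 17 called results for single pump genes, 235 recomputed values kept the call, 66 lost it and 1 reversed. The causes were not tested. At 220894 to 2109561 counts per library, Vha14-1 and the VhaM9.7 genes rest on few counts, and their intervals are the widest.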

Other observations

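Vha36-3, the second D subunit gene with counts, was too low to test. It had 5.25, 4.91, 3.45 and 7.22 CPM in Nab2-FLAG RIP libraries, 6.02, 0, 4.58 and 3.07 CPM in Atx2-3xFLAG RIP libraries and 7.54, 7.02, 0 and 7.47 CPM in control RIP libraries. In Input it had 3.37, 4.19, 4.30 and 8.08 CPM with Nab2-FLAG, 1.98, 0, 1.03 and 2.66 CPM with Atx2-3xFLAG and 4.33, 1.55, 0 and 8.47 CPM in controls. In RIP the ranges of the 3 genotypes overlapped. In Input every Nab2-FLAG library lay above every Atx2-3xFLAG library, on 14 and 5 counts summed over each group. Of all tested genes, 9.68% had groups that did not overlap in this comparison. The control libraries spanned both tagged ranges.

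Vha16-1 took 47.5% to 50.3% of the Vha counts in Nab2-FLAG RIP libraries, 50.7% to 52.4% in Atx2-3xFLAG RIP libraries and 44.6% to 46.7% in control RIP libraries, 3 ranges that did not overlap. In Input the ranges were 47.2% to 50.8% with Nab2-FLAG, 47.1% to 55.6% with Atx2-3xFLAG and 48.5% to 52.2% in controls, and all 3 overlapped. This share was looked at after the values were seen and was not tested.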
